A study of Gallus gallus with 10 samples.

Results

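The genes of BMP and activin signaling were followed across anterior and posterior placode progenitors of the chick embryo, before and after culture. The set holds 50 genes, chosen by symbol alone from 13009 genes on an Affymetrix chicken array: the BMP and GDF ligands, the activin, inhibin and TGF-beta ligands, their receptors, the SMADs, the ID genes, and the inhibitors FST, FSTL1, NOG, CHRD, GREM1, BAMBI, SMURF1 and SMURF2. The same rule also took in BMP2K and TGFBRAP1, which carry the letters of the family in their symbols. The rule used no measured value, but the set was drawn up with earlier results of these data known. Of the 50 genes, 36 were tested, those detected (called present by MAS5) on 2 or more of the 8 arrays whose calls could be used, and 21 were present on all 8.

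The study has 4 groups, with 1 sample per array. Cultured aPPs and cultured pPPs (2 arrays each) are explants of anterior and posterior preplacodal tissue kept in rat tail collagen for 5 hr. Uncultured aPPs (3 arrays) hold the precursors of the lens and olfactory placodes, and uncultured pPPs (3 arrays) those of the otic and epibranchial placodes. The design asks which genes follow Pax6, which comes up in posterior tissue in culture. All tissue was dissected by hand from embryos labelled HH5-7. The labels name no strain, genetic change or added factor. The sources used here do not give the number of embryos in a sample, so that p-values measure only the spread between these samples. With no array of tissue that aged in the embryo over those 5 hr, culture cannot be told apart from added age.

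As background, BMPs and activins are secreted ligands of the TGF-beta superfamily that bind pairs of receptor kinases on the cell surface. BMP receptors phosphorylate SMAD1, SMAD5 and SMAD9, whereas activin, nodal and TGF-beta receptors phosphorylate SMAD2 and SMAD3. Secreted antagonists such as follistatin, noggin and chordin hold the ligands away from their receptors. Cells that respond to BMP switch on ID genes, SMAD6, SMAD7 and BAMBI, and the products of SMAD6, SMAD7 and BAMBI damp the signal. In the early embryo BMP activity favours epidermis over neural plate, and the preplacodal region forms at the border between them.

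The deposited MAS5 signals, in arbitrary units, were not scaled between arrays and were quantile normalized over all 10 arrays. All signals below are on that scale. A log2 difference was taken after 16 was added to each signal, so that the change of a dim gene is understated, and is given ± the standard error of the fit. Adjusted p-values are those of limma with Benjamini-Hochberg adjustment over all 21591 tested probe sets, and a gene was called at an adjusted p under 0.05. Each gene is read from its probe set with the highest mean signal, and signals of different genes cannot be compared. An array had 44.7 to 50.2 percent of its probe sets detected. The preplacodal and ectodermal genes EYA2, DLX5, TFAP2A and EPCAM were measured in all groups. Of the same list of 11 genes, GATA2 had no present call on any of the 8 arrays. EYA1 was dim, at 3.23 to 9.39, with no present call in either cultured group.

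In aPPs against pPPs, 5 of the 36 tested genes were higher (BMP2, BAMBI, SMAD6, SMAD7 and ID1) and 1, FST, was lower. Over all 9615 tested genes, 1.53 percent were called higher and 0.853 percent lower in aPPs. In cultured pPPs against pPPs, BMP2, BAMBI and TGFB3 rose and BMP4 fell, and over all genes 3.18 percent were called higher and 1.86 percent lower. In cultured aPPs against aPPs, FST rose while BMP4 and ID1 fell, where 2.89 percent of all genes were called higher and 1.71 percent lower. Between cultured aPPs and cultured pPPs, FST alone passed, being lower in cultured aPPs, against 0.198 percent of all genes called lower and 0.146 percent called higher. Taking all comparisons, 8 of the 36 genes passed in at least 1 and 28 in none. The median log2 difference of the 36 genes was 0.09 in aPPs against pPPs, where that of all tested genes was -0.01. It was 0.10 against 0.02 in the culture of pPPs, -0.01 against 0.00 in the culture of aPPs, and 0.09 against -0.03 between the cultured regions.

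**Figure D1:**
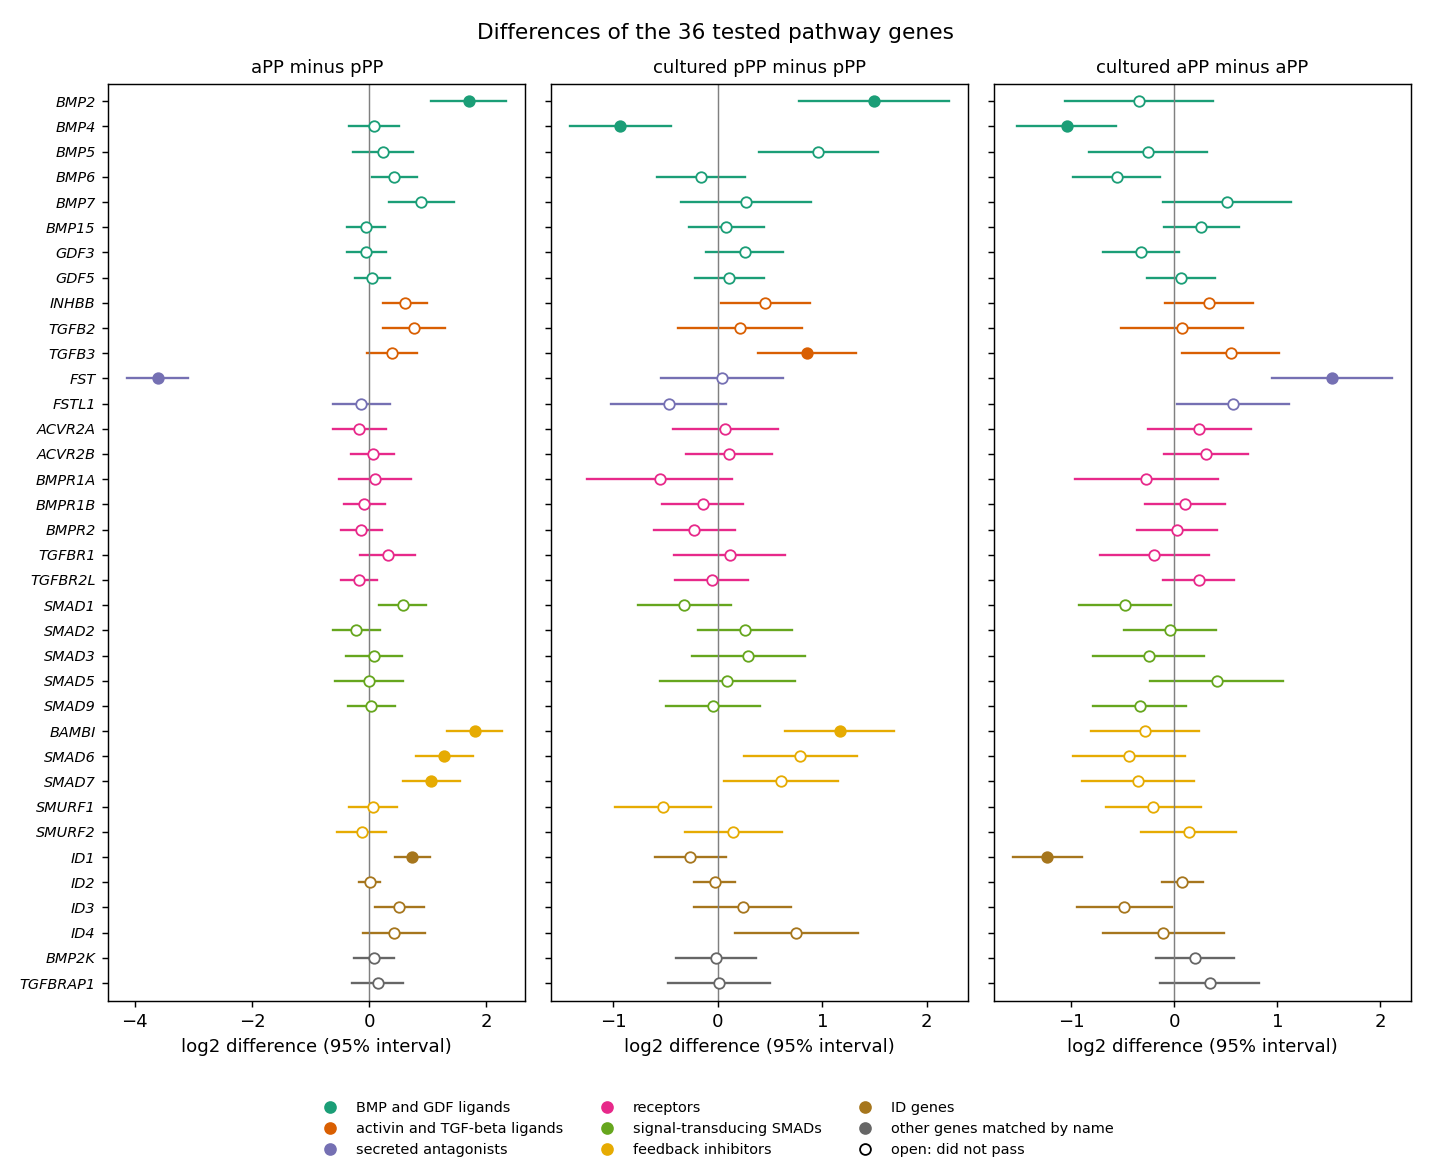
Log2 differences of the 36 tested genes (points, with 95% intervals as lines) in aPPs minus pPPs, cultured pPPs minus pPPs and cultured aPPs minus aPPs, coloured by role; filled points passed the test, and the 3 horizontal axes differ in range. FST lies at -3.60 in the first panel, away from all others, and the receptors and signal-transducing SMADs have open points throughout.

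Among the ligands, BMP2 had the clearest regional difference. BMP2 signals were 221, 133 and 353 in aPPs of sets 1, 2 and 3, against 89.4, 31.4 and 60.05 in pPPs of the same sets. The lowest aPP array lay above the highest pPP array. The log2 difference was 1.70 ± 0.30 (adjusted p = 0.00595), and within the sets it was 1.17, 1.65 and 2.28. Since these are bulk samples, fewer cells with a transcript and less of it per cell cannot be told apart, here or for any gene below.

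BMP2 rose in cultured pPPs, and between the cultured regions it was not called. In cultured pPPs it reached 186 and 191, against 31.4 to 89.4 in pPPs, and the 2 groups did not overlap. This rise was 1.49 ± 0.34 on the log2 scale (adjusted p = 0.021). It missed the threshold without pPP set 2 (1.19, adjusted p = 0.0838), without cultured pPP set 1 (1.51, adjusted p = 0.174) and without cultured pPP set 2 (1.48, adjusted p = 0.0792). Cultured aPPs had 179 and 161, inside the aPP range of 133 to 353, with a log2 difference of -0.34 ± 0.34 from aPPs (adjusted p = 0.671). Between cultured aPPs and cultured pPPs the log2 difference in BMP2 was -0.14, with a 95% interval of -0.92 to 0.65. A dimmer probe set of BMP2 also passed in cultured pPPs against pPPs (0.81, adjusted p = 0.0348), but not in aPPs against pPPs (0.53, adjusted p = 0.215).

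BMP4, a ligand of the ectoderm beside the neural plate, had no regional difference but fell in both cultures on its brightest probe set. In cultured aPPs its signals were 21.7 and 21.6, against 46.2, 67.8 and 73.4 in aPPs. In cultured pPPs they were 20.4 and 24.4, against 61.5, 42.2 and 70.7 in pPPs. All 4 cultured arrays lay below all 6 uncultured ones. The log2 differences were -1.04 ± 0.23 in the culture of aPPs (adjusted p = 0.0173) and -0.93 ± 0.23 in that of pPPs (adjusted p = 0.0309). Between aPPs and pPPs the log2 difference was 0.09, with a 95% interval of -0.35 to 0.52.

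The fall of BMP4 was close to the limit of the test. In the culture of pPPs the adjusted p lay between 0.0544 and 0.262 when any 1 of 6 arrays was left out, namely pPP set 1 or 3, either cultured aPP or either cultured pPP, the largest being that without cultured pPP set 1. In the culture of aPPs it was 0.0545 without aPP set 2, 0.051 without aPP set 3, 0.168 without cultured aPP set 1 and 0.172 without cultured aPP set 2. A second probe set of BMP4 gave -1.10 in the culture of aPPs (adjusted p = 0.0511) and -0.83 in that of pPPs (adjusted p = 0.138). Another, dim one gave only -0.25 in the culture of aPPs (adjusted p = 0.608) and -0.07 in that of pPPs (adjusted p = 0.902). The dim one thus did not show a fall of the size seen on the brightest probe set. It had no present call in cultured pPPs, and neither of these probe sets was called.

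BMP7, which is expressed with BMP4 in the early ectoderm, had 289, 688 and 372 in aPPs, against 169, 204 and 303 in pPPs, so that the groups overlapped. The log2 difference of 0.89 ± 0.26 was not called (adjusted p = 0.12), and became so without aPP set 1 (1.15, adjusted p = 0.0277). In cultured aPPs BMP7 signals were 590 and 627, against 308 and 231 in cultured pPPs, a log2 difference of 1.14 ± 0.32 (adjusted p = 0.261). With only the cultured arrays in the model its adjusted p was 0.038. The other tested probe sets of BMP7 gave 0.75 (adjusted p = 0.411) and 0.04 (adjusted p = 0.989) in aPPs against pPPs. Between the cultured regions they gave 0.97 (adjusted p = 0.495) and 0.07 (adjusted p = 0.941).

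BMP5 had its highest mean in cultured pPPs. Its signals were 32.0 and 33.7 in cultured pPPs, against 10.9, 8.62 and 7.72 in pPPs, without overlap. The log2 difference of 0.96 ± 0.27 had an adjusted p of 0.0589, and 5 of 19 alternative settings brought it under the threshold. The other tested probe sets of BMP5 gave 0.69 (adjusted p = 0.214) and 0.65 (adjusted p = 0.122) and were not called. In aPPs BMP5 varied between 4.16 and 29.3. BMP6 had 28.7, 30.6 and 17.9 in aPPs, against 19.4, 12.1 and 12.9 in pPPs, where the ranges overlapped (0.43, adjusted p = 0.379). In cultured aPPs BMP6 was at 10.96 and 13.14, below the 3 aPP arrays (-0.56, adjusted p = 0.151). BMP15, GDF3 and GDF5, ligands known best from the gonad, the early embryo and the joints, stayed under a signal of 15 on every array and passed no test. BMP3, BMP10, GDF2 and GDF10 were not tested, and GDF9 was tested only through a dimmer probe set, which was not called (adjusted p = 0.98 in aPPs against pPPs).

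Of the activin and TGF-beta ligands, TGFB3 rose in culture. In cultured pPPs TGFB3 had 209 and 131, against 75.7, 83.2 and 95.7 in pPPs, and the groups did not overlap. The log2 difference was 0.86 ± 0.22 (adjusted p = 0.0412). Without cultured pPP set 1 it was 0.55 (adjusted p = 0.42). The call was also lost without aPP set 2, any 1 pPP array or either cultured aPP array (adjusted p between 0.0509 and 0.112). In cultured aPPs TGFB3 was at 190 and 164, above the 98.9 to 129 of aPPs, and the log2 difference of 0.55 ± 0.22 was not called (adjusted p = 0.213). The second probe set of TGFB3 gave 0.79 in the culture of pPPs (adjusted p = 0.0568) and 0.71 in that of aPPs (adjusted p = 0.0913).

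INHBB, which encodes an activin subunit, had 22.1, 14.4 and 22.4 in aPPs, against 8.72, 3.64 and 9.55 in pPPs. The groups did not overlap, but INHBB had no present call in pPPs, so that the size of the difference is uncertain, and it was not called (adjusted p = 0.121). TGFB2 followed the same order, with 131, 89.5 and 205 in aPPs, against 66.2, 63.4 and 91.0 in pPPs, the 2 groups overlapping slightly (0.77 ± 0.25, adjusted p = 0.181). Neither gene was called in a culture comparison. INHBA, the other activin subunit gene, and TGFB1 had no present call on any of the 8 arrays.

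FST encodes follistatin, the secreted protein that binds activin with high affinity and some BMPs more weakly, and among the antagonists of the 50 genes was the secreted one that was called. FST signals were 13.7, 13.4 and 8.15 in aPPs, against 391, 419 and 198 in pPPs. The weakest pPP array stood far above the strongest aPP array, and the present call was made on 2 of 3 aPP arrays. The log2 difference was -3.60 ± 0.25 (adjusted p = 1e-06), and within the sets it was -3.78, -3.89 and -3.15. It stayed called under all 19 alternative settings, between -4.38 and -2.35.

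In culture FST rose in anterior tissue and stayed high in posterior tissue. Cultured aPPs had 56.7 and 71.3, against 8.15 to 13.7 in aPPs, a log2 difference of 1.53 ± 0.27 (adjusted p = 0.00513). Without cultured aPP set 1 or set 2 the adjusted p was 0.0502 and 0.109. Cultured pPPs had 291 and 374, inside the pPP range of 198 to 419 (0.04, with a 95% interval of -0.54 to 0.62). Cultured aPPs thus remained below cultured pPPs in FST, by a log2 difference of -2.12 ± 0.30 (adjusted p = 0.00664). That call was lost without cultured aPP set 1 (-1.99, adjusted p = 0.11), cultured aPP set 2 (-2.25, adjusted p = 0.0514) or cultured pPP set 1 (-2.29, adjusted p = 0.0587).

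The second probe set of FST was dimmer and had the same order between the regions. It read 11.2, 6.42 and 5.09 in aPPs, with no present call, against 17.6, 26.1 and 11.5 in pPPs, and was not called (adjusted p = 0.236). In cultured aPPs it read 7.02 and 9.64, against 45.2 and 36.6 in cultured pPPs, and there it was called. The log2 difference of this probe set between the cultured regions was -1.22 ± 0.23 (adjusted p = 0.0348). The 1 cultured aPP array with a usable call was not called present, so that this size is uncertain. With no present call in cultured aPPs or aPPs, this probe set gives no size for the culture of aPPs (adjusted p = 0.937), and in cultured pPPs against pPPs it gave 0.74 (adjusted p = 0.0584).

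NOG, CHRD and GREM1, the genes of noggin, chordin and gremlin, had no present call on any of the 8 arrays. Their strongest signal on any of the 10 was the 21.2 of CHRD, which is also the highest among the 14 genes that were not tested. FSTL1, a follistatin-related secreted protein, was measured in all groups with no call. Its signals were 196 and 201 in cultured aPPs, against 83.7 and 115 in cultured pPPs, with a log2 difference of 0.91 ± 0.28 (adjusted p = 0.34).

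**Figure D2:**
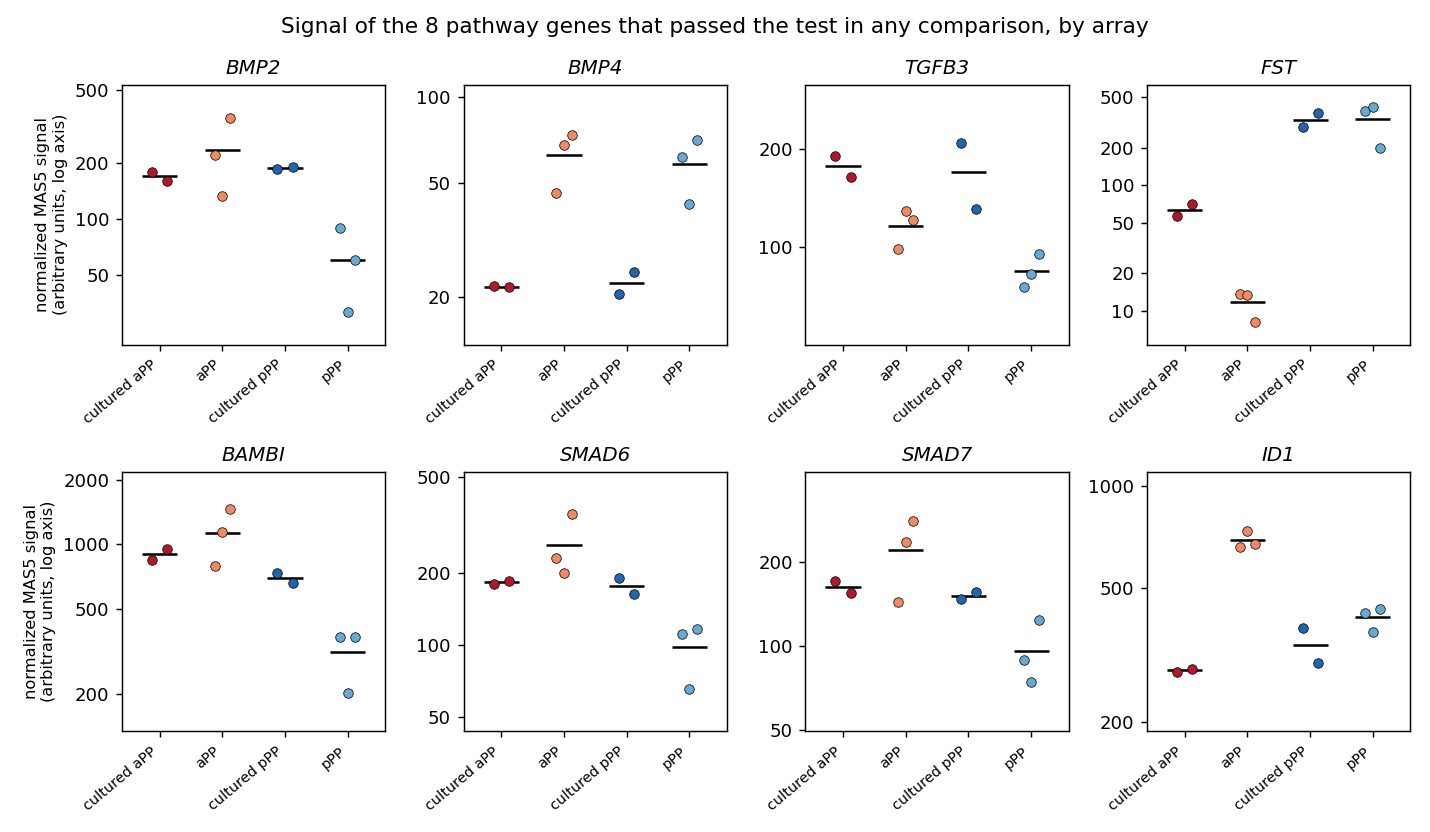
Normalized MAS5 signal of the 8 genes called in any comparison, on log axes with a range of its own per gene; each point is 1 array and each bar the mean of its group. BMP2, BAMBI, SMAD6 and SMAD7 are lowest in pPPs, BMP4 and ID1 are lower in cultured than in uncultured aPPs, and FST is at 8.15 to 13.7 in aPPs against 198 to 419 in pPPs.

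None of the 7 tested receptor genes passed in any comparison of the limma model, and none had an unadjusted p under 0.05. The type II receptors ACVR2A and ACVR2B, which bind activins and BMPs, had a present call on all 8 arrays, as had TGFBR1, a type I receptor for TGF-beta. ACVR2B lay between 666 and 1301 in aPPs, against 887 to 977 in pPPs, a log2 difference of 0.06 (95% interval -0.30 to 0.43). Over the 7 receptors the log2 differences ran from -0.17 to 0.31 in aPPs against pPPs, from -0.55 to 0.12 in cultured pPPs against pPPs and from -0.27 to 0.31 in cultured aPPs against aPPs. The BMP receptor genes BMPR1A, BMPR1B and BMPR2 were weakly detected, each on 5 of 8 arrays. BMPR1A was the least even of them, with 5.89, 21.7 and 48.6 in aPPs against 10.98, 20.06 and 28.57 in pPPs. TGFBR2L was present on 2 arrays, and ACVR1B, ACVR1C, TGFBR2 and TGFBR3 on none.

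The SMADs that carry the signal to the nucleus were also called nowhere, and 1 of the 5 had an unadjusted p under 0.05 in aPPs against pPPs. SMAD1, SMAD5 and SMAD9 serve BMP receptors, and SMAD2 and SMAD3 serve activin and TGF-beta receptors. SMAD1 came nearest, with 304, 234 and 312 in aPPs, against 204, 141 and 214 in pPPs, and the lowest aPP array exceeded the highest pPP array. Its log2 difference was 0.58 ± 0.19 (adjusted p = 0.186). In cultured pPPs SMAD1 was at 138 and 150, against 141 to 214 in pPPs (-0.32, adjusted p = 0.464). The log2 differences of SMAD2, SMAD3, SMAD5 and SMAD9 in aPPs against pPPs lay between -0.22 and 0.09.

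Of the intracellular and membrane inhibitors, BAMBI, SMAD6 and SMAD7, which BMP signaling itself induces, were higher in anterior tissue. BAMBI encodes a membrane pseudoreceptor without kinase activity that blocks receptor pairing. BAMBI signals were 792, 1141 and 1452 in aPPs, against 368, 202 and 370 in pPPs, with no overlap. The log2 difference was 1.80 ± 0.22 (adjusted p = 0.000298), and within sets 1, 2 and 3 it was 1.07, 2.41 and 1.93.

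SMAD6, which interferes with BMP-activated SMADs, had 230, 200 and 352 in aPPs, against 111, 65.1 and 116 in pPPs. SMAD7, which acts on both BMP and activin receptors, had 144, 236 and 280 in aPPs, against 88.6, 74.0 and 124 in pPPs. For both genes every aPP array exceeded every pPP array. The log2 differences were 1.28 ± 0.23 for SMAD6 (adjusted p = 0.00604) and 1.06 ± 0.23 for SMAD7 (adjusted p = 0.0234). The call of SMAD7 was lost without aPP set 2 (0.99, adjusted p = 0.1), aPP set 3 (0.87, adjusted p = 0.123), pPP set 1 (1.02, adjusted p = 0.076) or pPP set 2 (0.92, adjusted p = 0.154).

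After culture none of the 3 inhibitors was called between the regions. BAMBI reached 738 and 662 in cultured pPPs, against 202 to 370 in pPPs, a rise of 1.17 ± 0.25 (adjusted p = 0.0149) that missed the threshold without cultured pPP set 1 (1.09, adjusted p = 0.18). SMAD6 had 189 and 163 in cultured pPPs, against 65.1 to 116 in pPPs, and its log2 difference of 0.79 ± 0.25 was not called (adjusted p = 0.103). SMAD7 had 147 and 155 in cultured pPPs, against 74.0 to 124 in pPPs (0.61 ± 0.26, adjusted p = 0.217). For each of the 3 genes both cultured pPP arrays lay above the pPP arrays. How many of all genes show such an order was not counted, here or in the other comparisons. The same pPP arrays entered the test against aPPs by which the 3 genes were called low in pPPs, so that this order was favoured in advance. That limit also holds for BMP2 in the culture of pPPs, and for FST and ID1 in that of aPPs. It holds as well for listed genes below, such as MSX2 and FOXC2 in the culture of pPPs and CFC1 in that of aPPs.

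In cultured aPPs BAMBI was at 846 and 951, SMAD6 at 180 and 184, and SMAD7 at 171 and 154. None of the 3 was called against aPPs, with log2 differences of -0.28 for BAMBI, -0.44 for SMAD6 and -0.36 for SMAD7. Cultured aPPs minus cultured pPPs gave 0.35 for BAMBI (95% interval -0.22 to 0.93), 0.05 for SMAD6 (-0.54 to 0.64) and 0.09 for SMAD7 (-0.50 to 0.69). SMURF1 and SMURF2, ubiquitin ligases that mark SMADs and receptors for degradation, passed in no comparison. In aPPs against pPPs the log2 differences were 0.06 for SMURF1 (adjusted p = 0.979) and -0.12 for SMURF2 (adjusted p = 0.95). SMURF1 had 235 and 456 in cultured pPPs, against 491, 457 and 488 in pPPs, and only without cultured pPP set 2 was it called (-0.98, adjusted p = 0.0135).

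The ID genes encode helix-loop-helix proteins that hold back differentiation factors, and ID1 was the member of this group that was called. ID1 signals were 663, 737 and 675 in aPPs, against 421, 371 and 435 in pPPs, without overlap (0.74 ± 0.14, adjusted p = 0.0113). The call was lost without aPP set 2 (0.69, adjusted p = 0.0595) or pPP set 2 (0.67, adjusted p = 0.0871). In cultured aPPs ID1 fell to 282 and 288, against 663 to 737 in aPPs, a log2 difference of -1.23 ± 0.16 (adjusted p = 0.000512). Cultured pPPs had 381 and 299, against 371 to 435 in pPPs (-0.26, adjusted p = 0.417). Between the cultured regions ID1 did not separate, at -0.23 with a 95% interval of -0.60 to 0.14.

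The other ID genes passed no test. ID2 was even on its brightest probe set, at 2601, 2831 and 2634 in aPPs, against 2616, 2780 and 2609 in pPPs, and its 95% interval for this difference was -0.17 to 0.19. Its dimmer probe sets ran from -0.72 to 0.44 in the culture of pPPs, and none was called. ID3 was dim, at 13.8, 10.1 and 20.3 in aPPs, against 6.20, 0.92 and 9.68 in pPPs, where it had no present call (adjusted p = 0.297). ID4 had 166 and 185 in cultured pPPs, against 146, 107 and 58.2 in pPPs (0.75, adjusted p = 0.154). Of the 4 ID genes, ID1 alone passed in aPPs against pPPs.

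The culture responses of the regions were then compared with each other, as that of pPPs minus that of aPPs. None of the 36 genes passed this test in limma, and 0.0104 percent of all genes were called in each direction. An unadjusted p under 0.05 was found for 11 of the 36. The share of all genes under that unadjusted cutoff was not counted, here or for the other lists, so that such counts have no background. The 3 largest values belonged to BMP2 (1.84 ± 0.48, adjusted p = 0.319), FST (-1.49 ± 0.39, adjusted p = 0.32) and BAMBI (1.45 ± 0.35, adjusted p = 0.274). The lowest adjusted p of the 36 was that of ID1 (0.97 ± 0.23, adjusted p = 0.224). BAMBI alone passed when an array was left out, without aPP set 1 (1.68, adjusted p = 0.04998). That BMP2 and BAMBI were called in the culture of pPPs but not of aPPs, and FST and ID1 in that of aPPs but not of pPPs, is therefore not shown to be a difference between the regions.

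**Figure D3:**
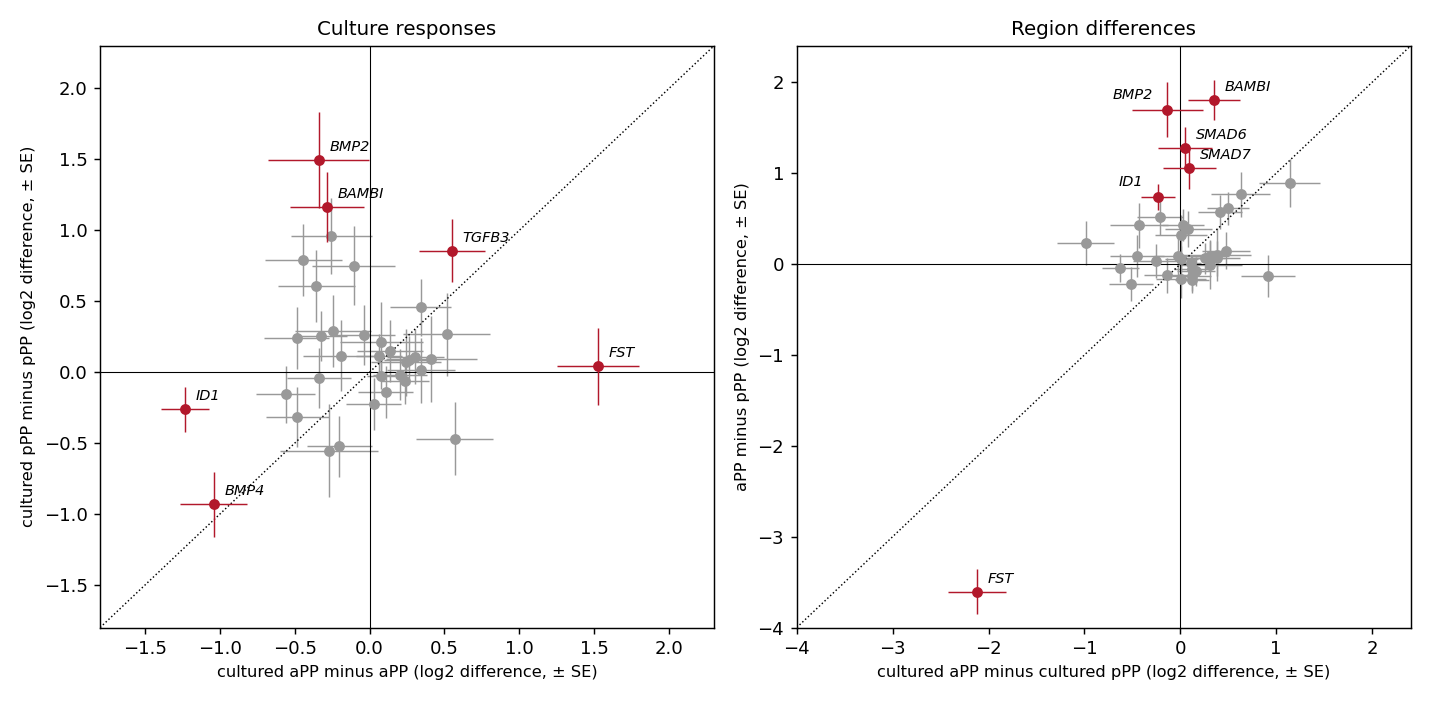
Left, log2 difference on culture in aPPs (horizontal) and in pPPs (vertical); right, difference between the regions after culture (horizontal) and before it (vertical). Each point is 1 of the 36 tested genes with its standard errors, genes called on either axis are red and named, and the dotted line marks equal values; in the right panel BMP2, BAMBI, SMAD6, SMAD7 and ID1 lie near 0 after culture and FST at -2.12.

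Other genes of the pathway were counted on lists drawn from textbook knowledge, with earlier results of these data known. Of 19 tested BMP target genes, 7 were called in aPPs against pPPs, all of them upward. They include BAMBI, ID1, SMAD6 and SMAD7, which are members here, and the transcription factor genes MSX2, GATA3 and ATOH8. MSX2 was at 18.9, 25.2 and 36.6 in aPPs and had no present call in pPPs, so that it was at least 2.09-fold higher in aPPs (adjusted p = 0.0059). GATA3 had a log2 difference of 1.39 ± 0.31 (adjusted p = 0.0284) and ATOH8 one of 1.00 ± 0.17 (adjusted p = 0.00495). The list's median was 0.52, against -0.01 for all genes.

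Culture moved further target genes, not all in the direction of ID1. In cultured pPPs against pPPs, 4 of the 19 were higher, namely BAMBI, MSX1 (0.88, adjusted p = 0.0437), TFAP2C (1.10, adjusted p = 0.0165) and MSX2 (1.55, adjusted p = 0.0011). In cultured aPPs against aPPs, MSX1 (1.16, adjusted p = 0.0106), TFAP2C (1.18, adjusted p = 0.0109) and HEY1 (1.59, adjusted p = 0.00035) were higher and ID1 was lower. MSX1 read 197.5 and 265.5 in cultured aPPs, against 106, 90.4 and 86.1 in aPPs. None of the 19 was called between cultured aPPs and cultured pPPs by limma, where 2 had an unadjusted p under 0.05. The summed signal of the 19 was 9311 to 10027 in aPPs, against 6479 to 7812 in pPPs. Without the 7 genes called in aPPs against pPPs, the sum of the other 12 was 6713 to 6921, against 5592 to 6530. That gap came mostly from DLX5, at 2907, 2917 and 2752 in aPPs, against 2383, 1622 and 2419 in pPPs. DLX5 was not called (0.44, adjusted p = 0.0836). The log2 differences of the 12 ran from -0.54 for HEY1 to 0.68 for DLX3, so that they did not share a direction. DLX5, DLX6, GATA3, TFAP2A and TFAP2C also stand on the ectodermal list below, so that the 2 sums are not independent.

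Of 11 tested secreted antagonists and modulators outside the 50 genes, BMPER, a BMP-binding protein, was higher in aPPs (0.90 ± 0.18, adjusted p = 0.0129). FSTL4, a follistatin-like gene, was lower in cultured aPPs than in aPPs (-1.02, adjusted p = 0.0126) and in cultured pPPs than in pPPs (-1.01, adjusted p = 0.0131). CFC1, a coreceptor for nodal, was 1 of 6 other ligand and receptor genes tested. It had 57.1, 77.3 and 94.6 in aPPs, against 30.4, 28.8 and 26.5 in pPPs (1.03 ± 0.19, adjusted p = 0.00732). In cultured aPPs CFC1 fell to 17.0 and 11.1, below all aPP arrays (-1.61 ± 0.21, adjusted p = 0.00055).

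Of 16 intracellular modulators, ZEB2, a SMAD-binding repressor, was at least 7.62-fold lower in aPPs (adjusted p = 0.000242), where it had no present call. It was also lower in cultured aPPs than in cultured pPPs (-2.48, adjusted p = 0.024). TAB1 (0.97, adjusted p = 0.0222), an activator of the kinase TAK1, and ZFYVE16 (0.94, adjusted p = 0.0189), an endosomal SMAD-binding protein, were higher in cultured pPPs than in pPPs. Of 5 tested activin and nodal target genes, SOX17 was higher in aPPs (adjusted p = 0.0181) and TBXT lower (-0.83, adjusted p = 0.0193). SOX17 had no present call in pPPs, so that its log2 difference of 2.19 (95% interval 1.22 to 3.17) is of uncertain size. OTX2 fell in cultured pPPs (-1.06, adjusted p = 0.00209).

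Markers of neighbouring tissues also differed between the groups, and their part in the values above was not tested. Of 7 tested mesendoderm and endoderm genes, SOX17 and HHEX were higher in aPPs. The summed signal of the 7 was 1185, 341 and 2219 in aPPs of sets 1, 2 and 3, against 283, 294 and 253 in pPPs. FOXA1 had no present call. Without SOX17 and HHEX the sum of the other 5 was 160, 108 and 655 in aPPs, against 92.3, 105 and 91.4 in pPPs. In aPP set 2, which had the lowest sum, BMP2 at 133 and SMAD6 at 200 were also the lowest aPP values. BAMBI at 1141, SMAD7 at 236, ID1 at 737 and FST at 13.4 were not. The sum of the 7 was 554 and 308 in cultured aPPs, and 251 and 231 in cultured pPPs.

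Of 5 tested neural plate genes, ZIC2 and ZEB2 were lower in aPPs, and the summed signal was 428 to 492 in aPPs, against 1431, 1894 and 1183 in pPPs of sets 1, 2 and 3. Without ZIC2 and ZEB2 the sum of the other 3 was 318 to 345 in aPPs, against 328 to 410 in pPPs, and the median log2 difference of the 5 was -0.20. Set 2 of the pPPs had the highest neural sum and the lowest ectodermal one, and also the lowest BMP2, BAMBI, SMAD6, SMAD7 and ID1. The summed signal of 9 preplacodal and ectodermal genes was 8077 to 8851 in aPPs, against 6876, 5394 and 7130 in pPPs, with GATA3 and KRT7 called higher in aPPs. In cultured aPPs the neural sum was 246 and 454, and in cultured pPPs 1053 on both arrays. Without ZIC2 and ZEB2 it was 168 and 301 in cultured aPPs, against 187 and 228 in cultured pPPs, and the groups overlapped.

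Of 9 tested mesoderm genes FOXC2 was higher and TBXT lower in aPPs, and TBX6 and TBX1 had no present call. The mesoderm sum was 1149 to 1382 in aPPs, against 302 to 662 in pPPs. Most of it was FOXC2, at 1196, 1037 and 1188 in aPPs, against 435, 160 and 333 in pPPs. Without FOXC2 and TBXT the sum was 98.9 to 173 in aPPs, against 94.7 to 181 in pPPs, and the median log2 difference of the 9 was 0.04. The sum of the 9 was 1818 to 2201 in cultured aPPs and 957 to 1281 in cultured pPPs, where FOXC2 had risen (1.57, adjusted p = 0.00429). The blood and endothelium genes had 1 of 5 called in aPPs against pPPs, EGFL7, which was higher in aPPs. In each culture comparison HBE was the 1 called, being higher in the cultured explants.

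**Figure D4:**
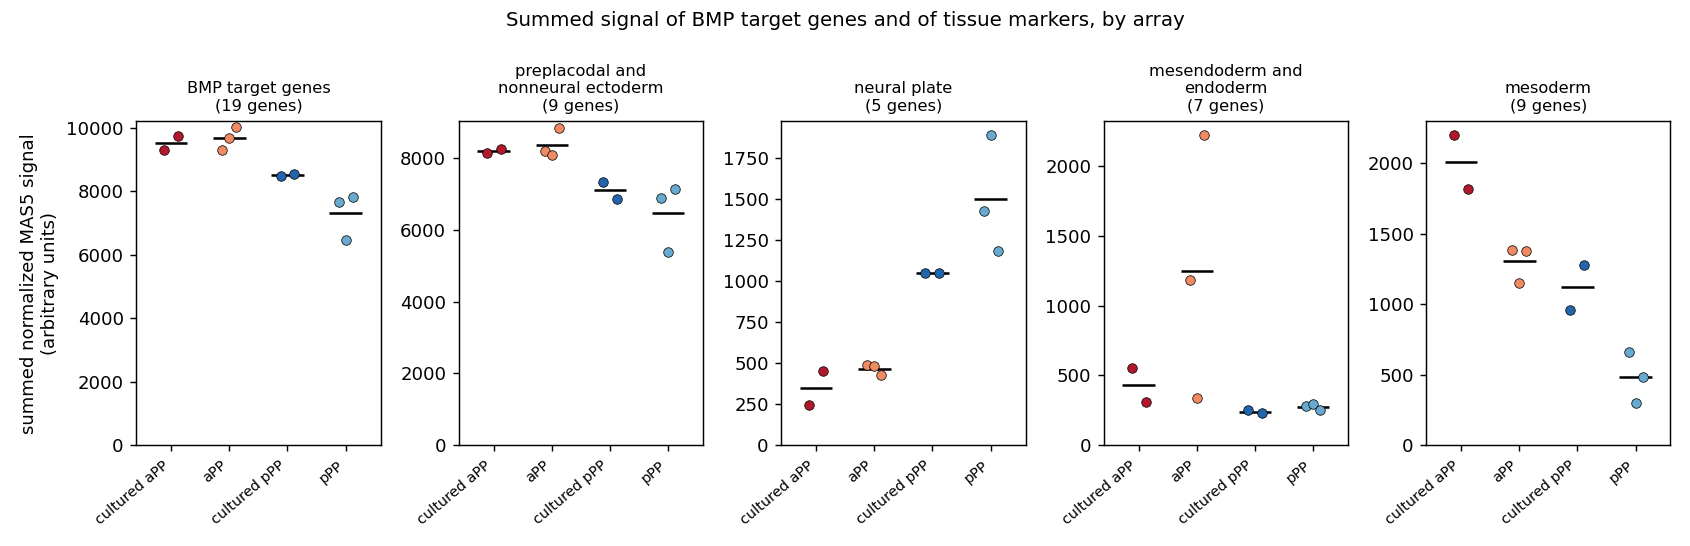
Summed normalized MAS5 signal of the tested BMP target genes and of the tested markers of 4 tissues, by array (points) with the group mean (bars), each panel with its own axis from 0. The mesendoderm sum is spread between 341 and 2219 over the 3 aPP arrays, and the BMP target sum is 9311 to 10027 in aPPs against 6479 to 7812 in pPPs. DLX5, DLX6, GATA3, TFAP2A and TFAP2C count in both the BMP target and the ectodermal panel.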

How the data were processed

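RNA of 10 samples was isolated (Absolutely RNA, Stratagene), amplified and biotin-labelled (NuGEN Ovation V2, Biotin Module) and hybridised to Affymetrix chicken arrays. The authors deposited MAS5 signals, which are linear intensity values, and detection calls. The sources used here give neither the version nor the scaling of MAS5. The deposited table of calls holds no column named for cultured pPP set 2 but 2 pairs of a signal and a call column named for cultured aPP set 2, so that these 4 columns were left out and calls come from 8 arrays. With 2 signal columns whose names carry no set number, 6 columns were unused, and signals of all arrays were read from the series-wide value table. The column of cultured aPP set 1 is marked as a re-scan. The other 6 signal columns were equal to that table.

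Array medians ran from 6.2 to 21.3 and trimmed means from 53.0 to 168. Signals of 38439 probe sets, controls left out, were quantile normalized, 16 was added and log2 taken. The 21591 probe sets present on at least 2 of 8 arrays were fitted with limma 3.58.1 in R 4.3.3 as 4 group means over 10 arrays, with moderated variances that follow intensity. Groups of 2 arrays share the spread of the others. Benjamini-Hochberg adjustment ran over all of them. Each gene was then read from its probe set with the highest mean. Symbols came from the platform annotation, which gives 1 symbol for 27168 probe sets, several for 177 and none for 11094. Where a group had no present call, the size of its difference is uncertain. The members, lists and tests were chosen with earlier results of these data known. Members called in any comparison are given array by array, and of other lists up to 4 called genes are named. No sequences are shown, since none was used here.

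Set numbers were taken to pair aPPs with pPPs, since departures from the group means correlated at 0.439, 0.182 and 0.226 for sets 1, 2 and 3. Departures of cultured with uncultured arrays did not (-0.01 and 0.08 in aPPs, 0.06 and -0.11 in pPPs). No correlation was computed between arrays with different set numbers, so that these values have no background. The sources used here do not say whether a set was dissected together. The main fit did not use the pairing. In simulated data of 21591 probe sets, aPPs against pPPs called 86 of 100 changed 2-fold and 100 of 100 changed 4-fold. Cultured pPPs against pPPs called 69 of 100 and 100 of 100. These folds are of the signal with the offset added, with median log2 differences of 0.98 and 2.00 in aPPs against pPPs. For a dim probe set they stand for a larger change of the signal itself. The counts therefore do not give how often a 2-fold change of a dim signal is called. Alternatives were offsets of 4 and 64, no normalization, trimmed-mean scaling, no filter or presence on 4 arrays, variances without the trend, the set number as a block, only the arrays compared, a 2-fold minimum, other probe sets and leaving out each array.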

Additional observations from a re-analysis of the deposited data

How the results depend on the processing

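The number of genes called was 6 in aPPs against pPPs, 4 in cultured pPPs against pPPs, 3 in cultured aPPs against aPPs, 1 between the cultured regions and 0 for the difference between culture responses. Without normalization these became 1, 0, 0, 0 and 0, with the median of all genes at -0.20 in the culture of pPPs and -0.19 in that of aPPs. In the culture of pPPs the count was 2 without a filter on detection and 2 with a 2-fold minimum. That minimum applies to the signal with the offset added. BMP4 fell short of it at a log2 difference of -0.93, with mean signals of 58.1 in pPPs and 22.4 in cultured pPPs. Between the cultured regions it was 2, with BMP7 added, when only those arrays were fitted. Leaving out 1 array at a time gave 4 to 7, 0 to 5, 1 to 3, 0 to 1 and 0 to 1 genes in the 5 comparisons. The 0 in the culture of pPPs came without cultured pPP set 1, and 2 came without any 1 pPP or cultured aPP array. In the culture of aPPs the 1 came without either cultured aPP array. Between the cultured regions the 0 came without either cultured aPP array or cultured pPP set 1, and the 1 for the difference between responses without aPP set 1.

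With sets as a replicate block, no call was lost and 6 genes were called in the culture of pPPs, SMAD6 (0.97, adjusted p = 0.0136) and BMP5 (1.10, adjusted p = 0.0239) being added. That block also ties cultured to uncultured arrays by set number, a pairing that the correlations above did not show. Of the 14 calls, 13 were lost without normalization and none with trimmed-mean scaling, an offset of 4, a stricter filter or variances without the trend. With an offset of 64 FST in cultured aPPs against aPPs was lost (adjusted p = 0.0654), and without a filter BMP4 and TGFB3 in the culture of pPPs. With only the arrays compared, SMAD7 in aPPs against pPPs (adjusted p = 0.0648) and TGFB3 in the culture of pPPs (adjusted p = 0.0807) were lost. With trimmed-mean scaling BMP6 was also called in cultured aPPs against aPPs (-0.72, adjusted p = 0.0435). FST in aPPs against pPPs was the 1 call kept under all 19 settings, with an adjusted p of at most 3.3e-05. No called difference changed sign. The cause of these changes was not tested. Dim genes are limited by background, and the brightest probe sets of 14 genes were present on fewer than 2 arrays.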
